A study of Mus musculus with 4 samples.

Results

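The clustered protocadherins are cell-surface adhesion proteins encoded by 3 tandem gene arrays, Pcdha (alpha), Pcdhb (beta) and Pcdhg (gamma). Members were all genes in the deposited tables whose symbol begins with Pcdha, Pcdhb or Pcdhg and continues with a digit, a, b or c, which gave 57 of 32285 features, namely 14 alpha, 22 beta and 21 gamma genes. They were measured in single nuclei from frozen hippocampi, both hemispheres, of 2 wild-type (WT) mice and 2 heterozygous knock-in (KI) littermates. KI mice carried Cyfip2+/R87C, a missense allele of a subunit of the actin-regulating WAVE complex, and both genotypes were on the C57BL/6N background. The treatment label of KI replicate 2 reads Cyfip2+/R88C, whereas its protocol names R87C. The labels gave no age for these animals, which the study's text places in adulthood. Each library came from 1 mouse. The p-values between genotypes measure the spread between 2 mice a group. Those between cell classes, fitted with the mouse as a block, measure the spread left after class and mouse, pooled over all classes fitted. That spread also holds genotype effects that differ between classes. The p-values of the interaction, also with the mouse as a block, measure how far the difference between its 2 classes varies among mice of the same genotype.

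In alpha and gamma genes, each neuron picks among alternative first exons, each with its own promoter, and splices the chosen one to constant exons shared by the whole array. Beta genes lack such constant exons and are read as single coding exons. Promoter choice is largely stochastic in neurons and depends on CTCF, cohesin and DNA methylation, whereas the C-type members at the ends of the alpha and gamma arrays (Pcdhac1, Pcdhac2, Pcdhgc3, Pcdhgc4 and Pcdhgc5) are expressed more uniformly. The proteins bind copies of themselves on opposing membranes, and the combination on a neuron serves in the self-recognition by which its branches avoid one another. The shared alpha tail binds the WAVE complex, of which Cyfip2 is a subunit, and the tails of alpha and gamma proteins also bind the kinases Ptk2 and Ptk2b.

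All 57 genes lie on the plus strand of chromosome 18 (mm10). In that build the alpha genes span 36930184 to 37187661, the beta genes 37264938 to 37524479 and the gamma genes 37661793 to 37841873. The nested structure of the arrays limits what each count can say. Only 33.2% to 68.5% of a gamma gene's exonic bases, and 45.1% to 62.0% of an alpha gene's, belonged to that gene alone, because the rest, mainly the constant exons, overlapped exons of other members. For beta genes the range was 90.3% to 100%, and only Pcdhb21 and Pcdhb22 overlapped each other. Reads from the 3′ end of an alpha or gamma transcript fall in the shared exons and cannot be given to 1 member, and the own exons of nearly all alpha and gamma genes also lie inside the body of another member. How reads in such nested stretches were assigned is not given in the sources used here, which limits every alpha and gamma value, also per own kilobase. 2 features share the symbol Pcdha11 and are given with their identifiers.

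After filters on genes, mitochondrial reads and doublets, 52032 nuclei of 55640 barcodes were kept, 11932 to 14927 per library, with medians of 3868 to 4699 UMIs (counted transcript molecules) and 1967 to 2202 genes per nucleus. A set of 313 barcodes occurred in 2 or more libraries. Clusters were formed without the 57 members and named from fixed markers, which left 16 of 35 clusters and 16.8% of nuclei unnamed, 3644 of these 8749 nuclei being from KI replicate 2. Of 13 named classes, 12 held at least 20 nuclei in every library. Dentate gyrus (DG) granule neurons came from a pair of clusters that divided by genotype. The cluster led by Glis3 had 4089 and 3116 nuclei from the WT mice but 202 and 590 from the KI mice, and the cluster led by Gm6999 and Acvr1c had 217 and 177 from the WT mice but 2279 and 1638 from the KI mice. Every DG value below joins both clusters. Cyfip2 itself, at 180 to 182 CPM (UMIs of a gene in 1000000 UMIs) in WT and 171 to 172 in KI over all nuclei, does not check the genotype, since a missense change leaves the gene transcribed.

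Over all nuclei the files held 18641 UMIs for the beta genes, 11664 for the gamma genes and 5456 for the alpha genes. Per kilobase of exon owned by each gene alone, this came to 203 UMIs for beta, 182 for gamma and 144 for alpha. The arrays stood closer on this scale than in raw UMIs, but 3′ counting need not give UMIs in proportion to exon length. Values per own kilobase are therefore not levels of expression. Members within an array differed far more than the arrays did. By UMIs alone Pcdhb14 led all members (2406), ahead of Pcdhb17 (2265). Per own kilobase Pcdhb17 had the highest value of any member with 486 UMIs, and Pcdhb1 the lowest with 1.93, which was 5 UMIs in all. Pcdhga12 led the gamma genes (384) and Pcdha11 (ENSMUSG00000102206) the alpha genes (325). Among C-type members, Pcdhgc4, which is needed for the survival of cortical interneurons, stood at 269 UMIs per own kilobase and Pcdhgc5, a late-expressed forebrain member, at 236. Pcdhac2, which serves in the tiling of serotonergic axons, stood at 120, Pcdhgc3 at 72.5 and Pcdhac1 at 22.7.

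**Figure D1:**
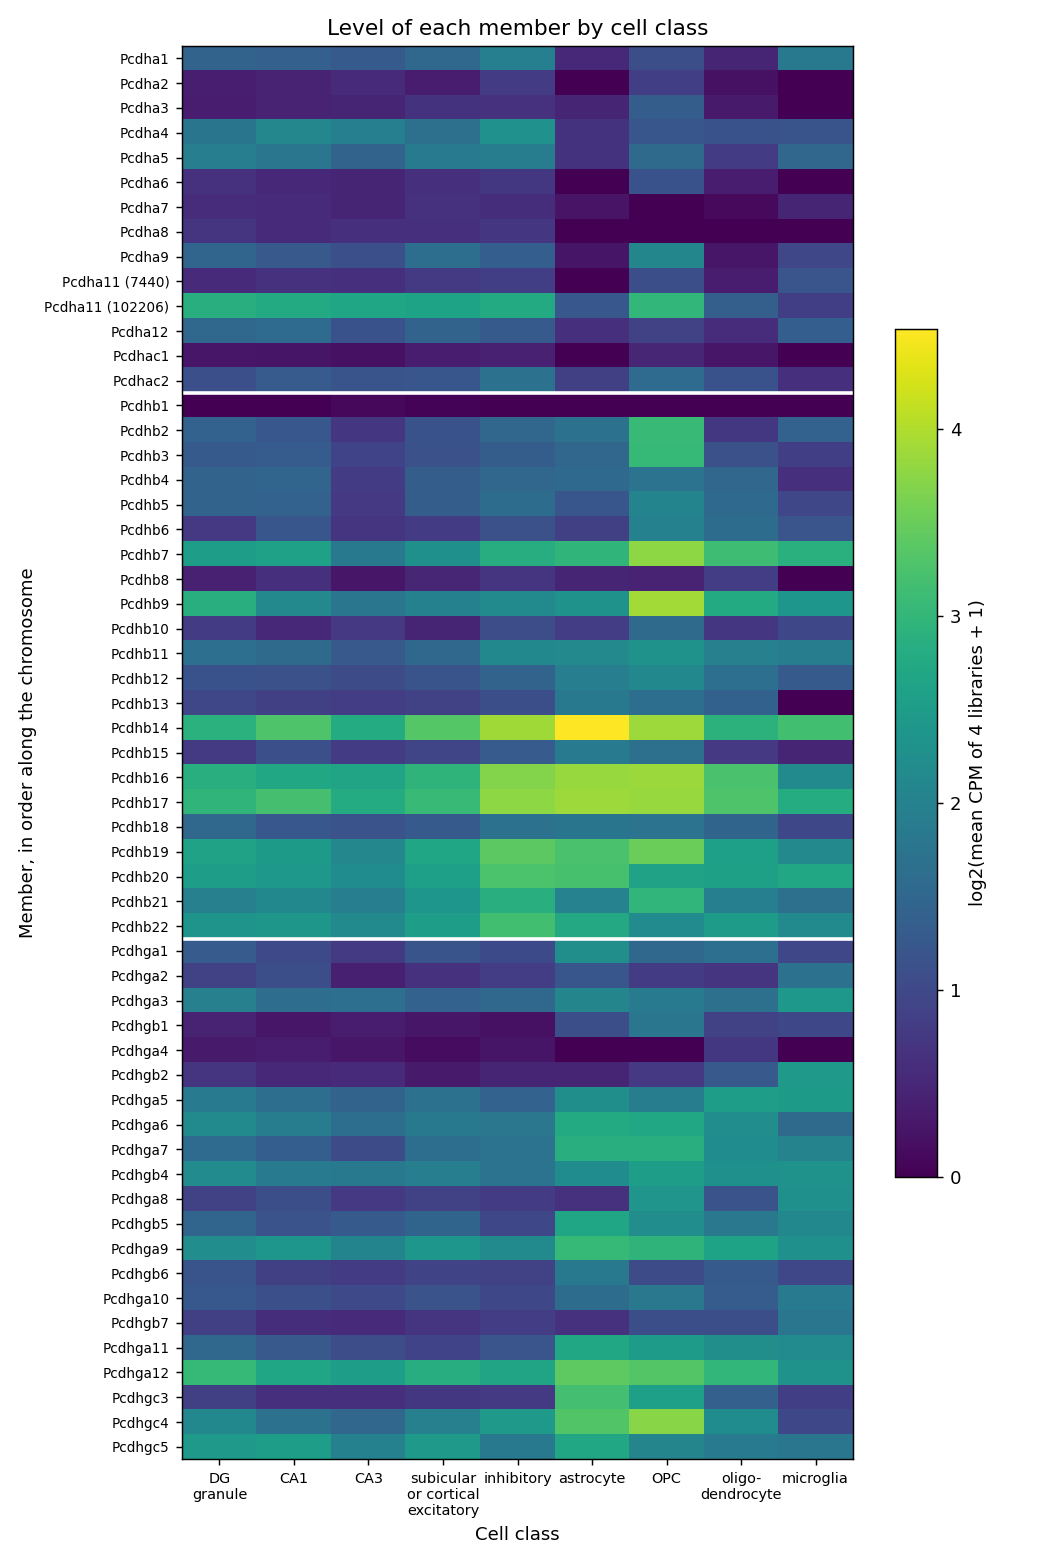
Level of each of the 57 members (vertical axis, in order along the chromosome; white lines part the alpha, beta and gamma arrays) in 9 cell classes (horizontal axis), shown as log2 of the mean CPM of 4 libraries plus 1. Alpha genes are dim in astrocytes and oligodendrocytes, Pcdhb14 is brightest in astrocytes, and Pcdhgc3 is bright in astrocytes and oligodendrocyte precursors (OPCs) but dim in neurons.

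The cell classes differed in which array they used. The summed alpha level lay at 15.1 to 30.8 CPM in the libraries of DG granule, CA1, CA3, subicular or cortical excitatory and inhibitory neurons, and at 17.3 to 28.2 CPM in OPCs. It lay at 5.86 to 8.24 CPM in oligodendrocytes and at 1.52 to 7.89 CPM in astrocytes, with no overlap between these glia and the neuron classes. The astrocyte values rest on 10 and 10 UMIs in WT and 2 and 1 in KI, both KI values being below the floor of 3 UMIs. The beta sum was lowest in CA3 neurons (39.1 to 50.7 CPM), at 49.1 to 78.2 CPM in DG, CA1 and subicular or cortical excitatory neurons, and higher in inhibitory neurons (85.9 to 123 CPM), astrocytes (103 to 115 CPM) and OPCs (118 to 154 CPM). Oligodendrocytes, at 65.0 to 86.4 CPM of beta UMIs, overlapped the excitatory neurons. The ranges of DG, CA1 and subicular or cortical neurons overlapped, as did those of inhibitory neurons with astrocytes and with OPCs. Among classes of at least 100 nuclei in every library, gamma sums lay at 23.1 to 37.0 CPM in CA3 neurons, 29.3 to 40.5 CPM in inhibitory neurons, 50.5 to 100.5 CPM in OPCs and 68.6 to 101 CPM in astrocytes, the last pair overlapping. Microglia gave 28.8 to 79.95 CPM of gamma UMIs, but their nuclei also held 319 to 1364 CPM of the summed DG granule markers, against 2048 to 2442 CPM in DG granule neurons, and the part of RNA from other cells in the microglial values was not tested.

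The 6 class contrasts were tested with edgeR in 1 fit with the mouse as a block, where 21 of the 57 members passed the filter on low counts. Between the neuron classes and the non-neuronal classes, 1 member was higher and 2 were lower, against 51.7% of all genes called in this contrast. Pcdha11 (ENSMUSG00000102206) was higher in neurons by 1.73 ± 0.33 (log2, SE; adjusted p = 1.72e-05). Its level was 5.92 to 6.99 CPM in the DG libraries and 1.498 to 1.76 CPM in the oligodendrocyte libraries, the latter from 2 to 6 UMIs each. Pcdhga5 (−2.12, adjusted p = 0.000290) and Pcdhga8 (−1.08, adjusted p = 0.0422) were lower in neurons. Cajal-Retzius cells, which are few, gave Pcdhga5 0 UMIs in every library, where 3 UMIs would be 21.8 to 32.9 CPM, and their part in its fitted value was not tested alone.

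Restricting the fit to classes of at least 100 nuclei in every library, a choice made after these values were seen, left 48 members tested and called 18, against 66.6% of all genes. Of the 8 alpha genes tested, 7 were higher in neurons, by 0.94 (Pcdhac2) to 1.86 (Pcdha11, ENSMUSG00000102206) on the log2 scale. Of the 20 gamma genes tested, 7 were lower in neurons, among them Pcdhgc3 (−1.68 ± 0.42, adjusted p = 0.000681), Pcdhga11 (−1.33 ± 0.23, adjusted p = 3.54e-06) and Pcdhgb1 (−1.98 ± 0.51, adjusted p = 0.00102), and 1, Pcdhgc5, was higher (0.67, adjusted p = 0.0231). Of the 20 beta genes tested, Pcdhb22 was higher, Pcdhb7 and Pcdhb9 were lower, and 17 did not pass. Pcdhga5 differed by −0.56 in this fit (adjusted p = 0.0489). The share of members called was below the share of all genes in both fits.

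Between DG granule and CA1 neurons 2 of 21 members were called, against 37.6% of all genes. Pcdhb9 was higher in DG, by 0.74 ± 0.20 on the log2 scale (adjusted p = 0.00241), with 5.90, 4.33, 7.17 and 7.30 CPM in DG and 2.84, 3.40, 3.29 and 4.05 CPM in CA1 (WT replicates 1 and 2, then KI replicates 1 and 2, as in every list of 4 values). These DG values lay above all CA1 values. Pcdhb14 was lower in DG, by −0.54 ± 0.17 (adjusted p = 0.0115). Between CA3 and CA1 neurons 3 of 21 members were called, all lower in CA3, against 24.8% of all genes. These were Pcdhb7 (−0.93 ± 0.23, adjusted p = 0.00169), Pcdhgc5 (−0.67 ± 0.25, adjusted p = 0.0397) and Pcdhb14 (−0.53 ± 0.19, adjusted p = 0.0295). Without KI replicate 2 none of the 21 was called in CA3 against CA1 (3242 of 15875 genes were), and with classes of at least 100 nuclei 9 of 48 were called, again all lower in CA3, against 24.4% of all genes. The latter included Pcdhb2, Pcdhb4, Pcdhb5, Pcdhb6 and Pcdhb7, but not Pcdhb3, which lies among them (adjusted p = 0.19). The estimate was lower in CA3 for 20 of the 21 members, and for 41 of the 48.

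Against the mean of the principal neurons (DG, CA1 and CA3), 9 of 21 members were higher in inhibitory neurons and 2 lower, against 48.3% of all genes called, so the share of members called was near that of all genes. Of the 9 higher members, 8 were beta genes, at 0.48 (Pcdhb7) to 1.03 (Pcdhb19) on the log2 scale. Pcdhb19 had 7.14, 8.37, 12.6 and 9.93 CPM in inhibitory neurons and 2.52 to 6.50 CPM in all libraries of the 3 principal classes, which did not overlap (adjusted p = 8.06e-07). Pcdhb16 was higher by 0.95 ± 0.13 (adjusted p = 4.37e-08), with 9.71 to 14.5 CPM against 3.99 to 7.58 CPM. The ninth, Pcdhgc4, was higher by 0.80 ± 0.20 (adjusted p = 0.000793), with 4.17 to 4.82 CPM in inhibitory neurons and 1.11 to 3.94 CPM in the principal classes. The 2 lower members were both gamma genes, Pcdhgc5 (−0.75 ± 0.24, adjusted p = 0.00693) and Pcdhgb5 (−0.72 ± 0.30, adjusted p = 0.0442). Only 1 alpha gene was tested in this fit. With classes of at least 100 nuclei 14 of 48 members were called, a share below the 47.7% of all genes, namely 9 of 20 beta and 2 of 8 alpha genes, all higher, and 3 of 20 gamma genes.

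Among glia, 3 of 21 members differed between astrocytes and oligodendrocytes, all higher in astrocytes, against 36.4% of all genes. Pcdhgc3 was higher by 2.40 ± 0.46 (adjusted p = 2.72e-05), with 7.10, 8.75, 10.5 and 6.10 CPM in astrocytes and 1.26, 1.02, 1.17 and 2.997 CPM in oligodendrocytes, each value from 12 UMIs or fewer. Pcdhb14 had 21.3, 25.5, 19.2 and 22.9 CPM in astrocytes and 3.75 to 9.67 CPM in oligodendrocytes (1.67 ± 0.27, adjusted p = 1.16e-06). Pcdhgc4 was the third (1.11 ± 0.38, adjusted p = 0.0154). OPCs had 8 of 21 members higher than oligodendrocytes and 0 lower, against 34.7% of all genes, again a share near that of all genes. The largest were Pcdha11 (ENSMUSG00000102206; 2.01 ± 0.53, adjusted p = 0.00193) and Pcdhga8 (1.80 ± 0.63, adjusted p = 0.0221). Leaving out 1 library moved the OPC count to 2 (without WT replicate 1), 3 (without WT replicate 2) or 6 (without either KI replicate), where 4326 of 15218, 4326 of 15251, 4592 of 15309 and 4841 of 15875 genes were called. With classes of at least 100 nuclei 10 of 48 were higher, a share below the 31.5% of all genes, and the largest among them, Pcdha9 (3.74, adjusted p = 0.00401), Pcdhb2 (3.61, adjusted p = 1.64e-05) and Pcdhb3 (2.72, adjusted p = 0.00107), rested on 0 to 11 UMIs per OPC library. OPC nuclei also held 3129 to 4646 CPM of the summed inhibitory markers, above in both KI libraries, against 6566 to 8179 CPM in inhibitory neurons, and astrocytes held 746 to 862 CPM of the summed DG granule markers. The inhibitory markers also stood at 2280 to 3144 CPM in committed OPCs and 1254 to 1674 CPM in oligodendrocytes, so their source in OPCs is not known. The part of either marker list in the glial values was not tested.

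Between genotypes the arrays moved apart. Over all nuclei the summed beta level was 56.2 and 57.3 CPM in WT, against 78.9 and 76.6 CPM in KI, a log2 ratio of means of 0.45. The summed gamma level was 48.1 and 49.0 CPM in WT, against 33.6 and 38.2 CPM in KI (−0.44). The alpha sum was 19.8 and 23.2 CPM in WT, against 17.2 and 18.8 CPM in KI (−0.25). No KI library overlapped a WT library in any of the 3 sums, which are descriptions with no test. In sums over all nuclei, fewer cells of a type and less RNA per cell cannot be told apart. The ratio of beta to gamma UMIs, which does not depend on the scaling of a library, was 1.17 in both WT libraries and 2.35 and 2.00 in KI.

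**Figure D2:**
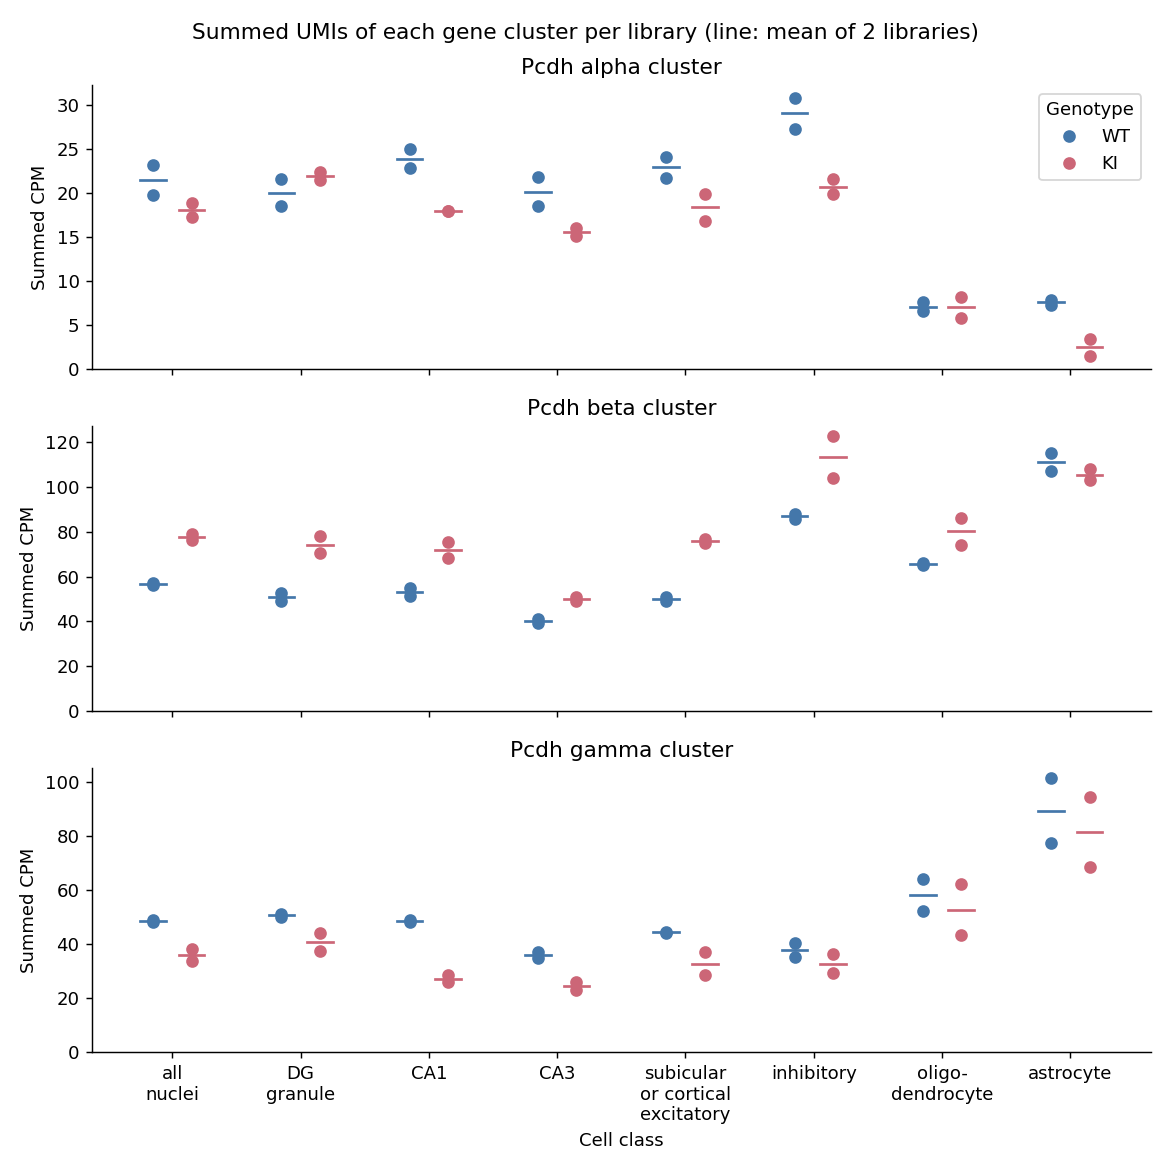
Summed CPM of the alpha, beta and gamma genes (vertical axes, 1 panel per array) over all nuclei and in 7 cell classes (horizontal axis). Points are libraries, blue for WT and red for KI, and lines are means of 2 libraries. Beta points are higher in both KI libraries in all neuron classes shown, gamma points lower in DG, CA1, CA3 and subicular or cortical neurons, and in astrocytes the beta and gamma points of the genotypes overlap.

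The same split was present inside the neuron classes. In CA1 neurons the gamma sum was 48.2 and 48.9 CPM in WT, against 25.8 and 28.7 CPM in KI (log2 ratio −0.83), while the beta sum was 51.3 and 54.9 CPM in WT, against 68.2 and 75.5 CPM in KI (0.44). In DG granule neurons the beta sum was 52.6 and 49.3 CPM in WT, against 78.2 and 70.5 CPM in KI (0.55), and the gamma sum 51.2 and 50.1 against 37.2 and 44.2 CPM (−0.31, or −0.18 with library sizes scaled by the trimmed mean of M-values, TMM, and −0.44 to −0.20 with 1 library left out). CA3 neurons gave 41.1 and 39.1 CPM of beta UMIs in WT against 49.2 and 50.7 in KI (0.32), with a gamma ratio of −0.55. In subicular or cortical excitatory neurons the log2 ratios were 0.60 for beta and −0.44 for gamma. The beta to gamma UMI ratio in CA1 neurons was 1.07 and 1.12 in WT and 2.64 and 2.63 in KI, and in DG neurons 1.03 and 0.983 in WT and 2.10 and 1.59 in KI. For these 4 classes neither sum overlapped between genotypes. CA1 nuclei also divided by genotype when clustered more finely (resolution 1.0). The CA1 cluster then kept 2251 and 1612 WT but 396 and 694 KI nuclei, an unnamed cluster with 2 of 7 CA1 markers raised held 37, 26, 1209 and 1045 (WT, then KI), and the part of this in the CA1 values was not tested.

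Markers of other cells also moved with genotype in these neurons. The summed level of 7 OPC markers was 230 and 223 CPM in WT, against 443 and 459 CPM in KI DG neurons, and 115 and 117 against 188 and 169 CPM in CA1 neurons. In DG 3 of the 7 were above in both KI libraries, with Lhfpl3 and Ptprz1 making up most of the sum. Matn4 was lower there, at 10.6 and 12.3 CPM in WT, against 7.08 and 6.48 CPM in KI, and Cspg4, Vcan and C1ql1 overlapped. In CA1 3 of the 7 (Matn4, Lhfpl3 and Ptprz1) were above, Pdgfra and C1ql1 were below, and Cspg4 and Vcan overlapped. The defining OPC marker Pdgfra stood at 4.39, 4.72, 6.08 and 4.94 CPM in DG neurons, against 803 to 867 CPM in OPCs, and in CA1 neurons at 4.46 and 3.49 CPM in WT, against 2.97 and 3.34 CPM in KI. The summed astrocyte markers were lower in KI CA1 neurons, at 155 and 164 CPM in WT, against 99.7 and 112 CPM in KI. In CA3 neurons the OPC markers were at 94.0 and 101 CPM in WT, against 142 and 136 CPM in KI. Only 2 of the 7 (Matn4 and Lhfpl3) were above in both KI libraries there, and the rest overlapped. The CA3 markers in DG neurons were at 681 and 679 CPM in WT, against 797 and 778 CPM in KI. The markers of the class itself were lower in both KI libraries, at 2442 and 2419 against 2048 and 2274 CPM for DG, 1218 and 1189 against 1060 and 881 CPM for CA1, and 2841 and 2853 against 2536 and 2532 CPM for CA3. In inhibitory neurons the class's own markers were at 8087 and 8179 CPM in WT, against 6566 and 6699 CPM in KI, the CA3 markers at 947 and 1008 against 689 and 819 CPM, and the OPC markers at 498 and 494 against 573 and 580 CPM. In subicular or cortical neurons the CA1 markers were at 659 and 548 CPM in WT, against 470 and 407 CPM in KI. The CA3 and DG granule markers were also lower in both KI libraries there. The OPC markers were higher, at 190 and 242 CPM in WT, against 267 and 257 CPM in KI. The part of these markers in the protocadherin values was not tested.

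Other classes followed this less fully. Inhibitory neurons had beta sums of 88.2 and 85.9 CPM in WT, against 123 and 104 CPM in KI (log2 ratio 0.38), but their gamma sums overlapped (35.4 and 40.5 against 29.3 and 36.2 CPM). Oligodendrocytes had 65.0 and 66.0 CPM of beta UMIs in WT and 86.4 and 74.2 CPM in KI (0.29), with overlapping gamma sums. Their summed OPC markers were at 234 and 223 CPM in WT, against 295 and 280 CPM in KI. The DG granule, CA3 and astrocyte markers were lower in both KI libraries, and the part of these markers was not tested. At resolution 1.0 the oligodendrocytes divided by genotype too, into clusters of 2024, 1216, 71 and 398 and of 19, 11, 2042 and 453 nuclei (WT, then KI), whose part in the beta sums was not tested. In astrocytes both overlapped, with beta sums of 107 and 115 CPM in WT, against 103 and 108 CPM in KI. The alpha sum was lower in both KI libraries in CA1 (log2 ratio −0.41), CA3 (−0.37), subicular or cortical (−0.32) and inhibitory neurons (−0.49). DG granule neurons differed in this, at 18.5 and 21.6 CPM in WT, against 21.5 and 22.4 CPM in KI, which overlapped. The overlap holds with library totals only, since with TMM-scaled library sizes both KI values lay above and the log2 ratio was 0.27. Whether these differences between classes exceed the spread of the mice was not tested for the sums.

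Member by member, the direction was shared across the beta and the gamma array. On the TMM scale, 20 of the 22 beta genes were above both WT libraries in both KI libraries over all nuclei and 0 were below, where 30.4% of all genes tested were above in this way. In the gamma array 16 of 21 were below in both KI libraries and 0 above, where 29.8% of all genes were below. The KI mean was higher for all 22 beta genes and lower for all 21 gamma genes. Of the 14 alpha genes 6 were below, 0 above and 8 overlapped, and the KI mean was lower for 12 and higher for 2. With library totals in place of TMM, 19 beta genes were above and the gamma and alpha counts stayed at 16 and 6. The members share an array, a chromosome and, for alpha and gamma, exons, so they are not independent of one another.

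**Figure D3:**
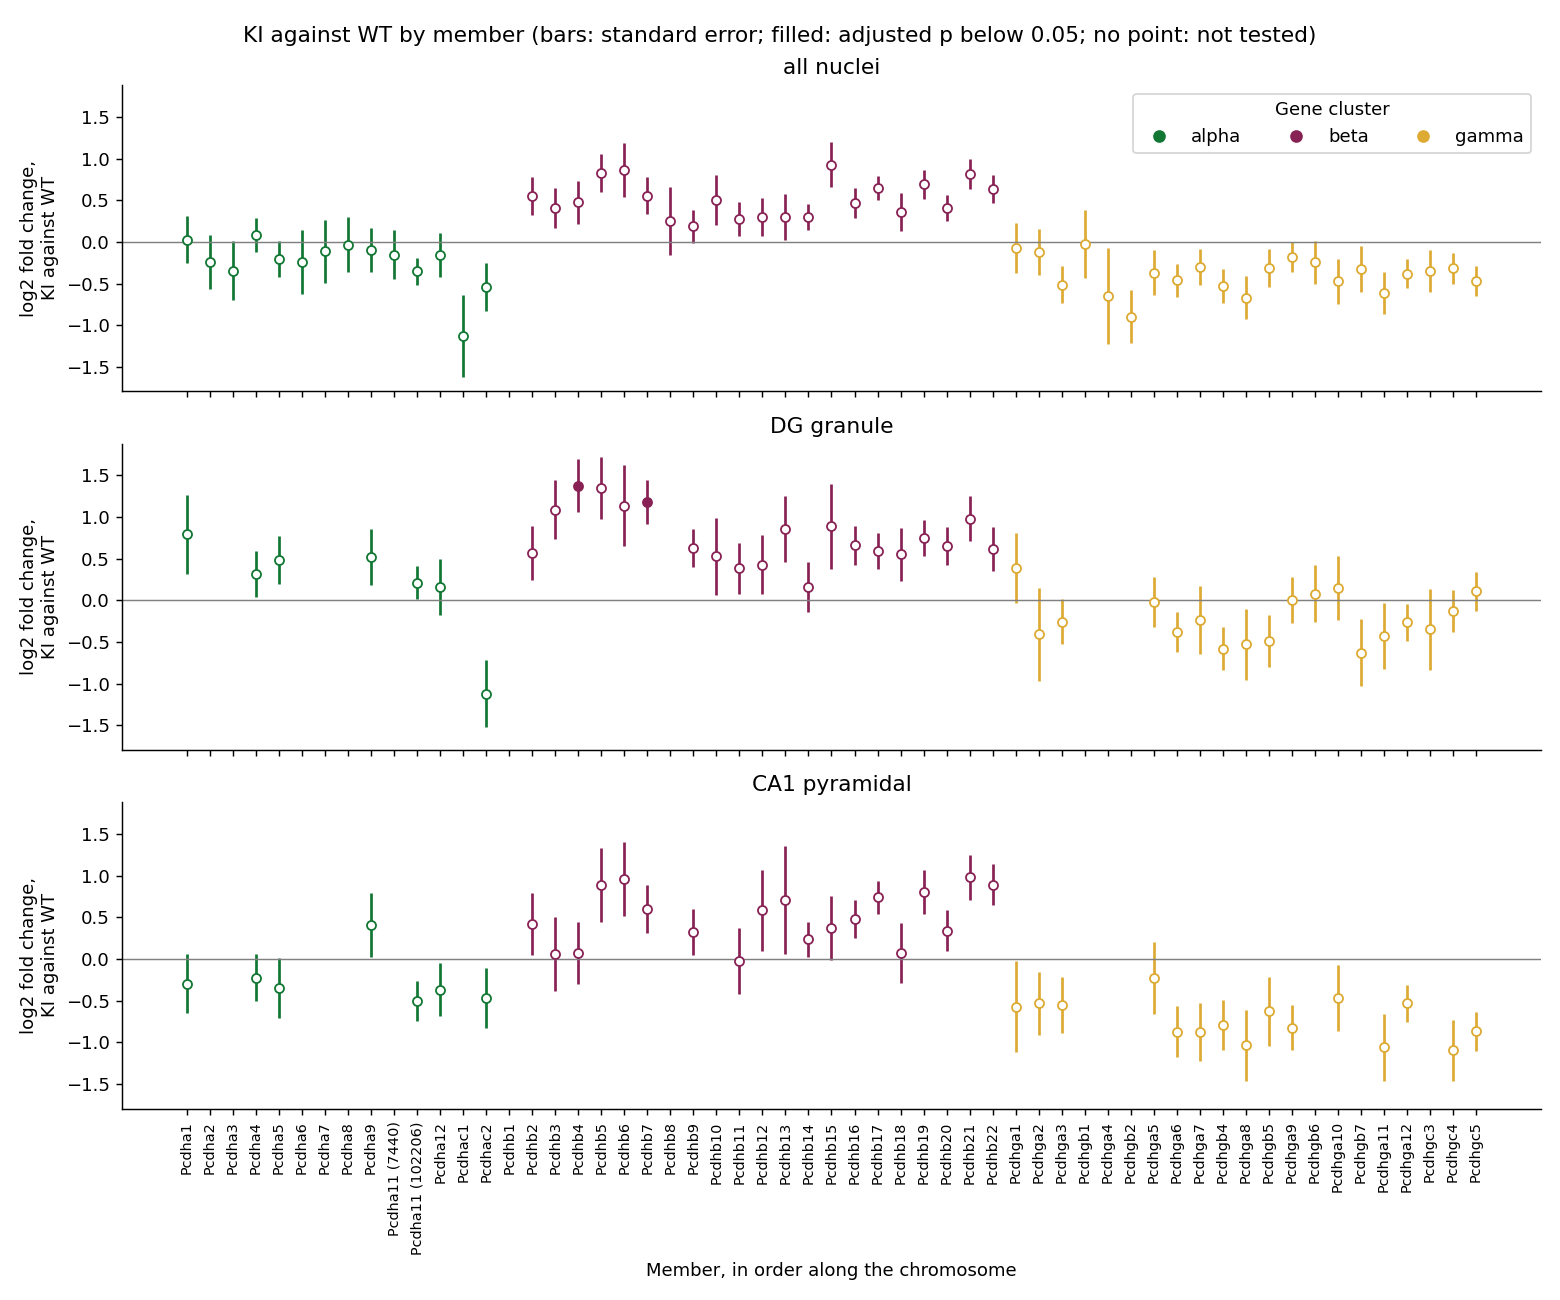
Log2 fold change of KI against WT (vertical axis) for each member in order along the chromosome (horizontal axis), for all nuclei (top), DG granule neurons (middle) and CA1 neurons (bottom). Points are edgeR estimates with SE bars, filled where the adjusted p was below 0.05 (Pcdhb4 and Pcdhb7 in DG only), and members without a point did not pass the filter on low counts. Over all nuclei the beta points lie above 0 and the gamma points below it.

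Few single members passed the test across all genes. Over all nuclei 56 members passed the filter on low counts, all but Pcdhb1, and edgeR called 0 of them, where 0.889% of all genes were called. There were 14 members with an unadjusted p below 0.05, a share near the 24.3% of all genes, and DESeq2 called 3, a share below its 8.42% of all genes. The fitted log2 fold changes of the beta genes tested ran from 0.19 (Pcdhb9) to 0.92 (Pcdhb15), those of the gamma genes from −0.90 (Pcdhgb2) to −0.03 (Pcdhgb1), and those of the alpha genes from −1.13 (Pcdhac1) to 0.08 (Pcdha4). The median over the 21 beta genes tested was 0.47 and over the 21 gamma genes −0.37, beside 0.01 over all 21718 genes tested. Leaving out KI replicate 2 gave 11 calls and leaving out KI replicate 1 gave 2, but calls over all genes moved with it, to 7196 of 22243 and 1090 of 22185, so the share of members called stayed below that of all genes.

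Pcdhb17, the member with the most UMIs per own kilobase, had 6.52 and 6.47 CPM in WT, against 9.86 and 9.79 CPM in KI over all nuclei (0.65 ± 0.14, adjusted p = 0.0827). Its KI values lay well above its WT values, but it did not pass the threshold across all genes. DESeq2 called it, and so did edgeR with either KI library left out, where the counts over all genes are given above. Pcdhb16 had 6.68 and 5.40 CPM in WT, against 8.38 and 7.69 CPM in KI (0.46, adjusted p = 0.19). Pcdhb14 had 7.35 and 8.56 CPM in WT, against 9.42 and 9.45 CPM in KI (0.30, adjusted p = 0.28). Among gamma genes Pcdhga12 had 6.96 and 7.53 CPM in WT, against 4.77 and 5.98 CPM in KI (−0.38, adjusted p = 0.24). Pcdhga9 lay closer together, at 4.45 and 4.24 CPM in WT, against 3.75 and 3.63 CPM in KI (−0.18). In the alpha array Pcdha11 (ENSMUSG00000102206) had 5.93 and 6.64 CPM in WT, against 4.54 and 4.95 CPM in KI (−0.35, adjusted p = 0.25), whereas Pcdha4 overlapped between genotypes and Pcdha5 differed little, at 2.42 and 2.75 CPM in WT, against 1.96 and 2.37 CPM in KI.

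In DG granule neurons 2 of the 45 members tested rose in KI and none fell, where 9.49% of all genes were called. Pcdhb7 had 3.06 and 3.28 CPM in WT, against 7.499 and 5.45 CPM in KI (log2 1.18 ± 0.26, adjusted p = 0.0440). Pcdhb4 had 0.945 and 1.11 CPM in WT, against 2.50 and 2.37 CPM in KI (1.38 ± 0.32, adjusted p = 0.0485). Both lie in the stretch from Pcdhb3 to Pcdhb7, whose 5 genes had estimates of 1.09 to 1.38, a stretch singled out after its values were seen. These calls were lost with library totals (0 members). With 1 library left out the log2 fold changes ranged from 0.89 to 1.41 for Pcdhb7 and from 1.26 to 1.48 for Pcdhb4. EdgeR called 0 members without WT replicate 1, 0 without WT replicate 2 and 12 without KI replicate 2, in fits that called 221 of 16820, 212 of 16812 and 7661 of 17391 genes. The pair of DG clusters differed in their shares between genotypes, as given above, and the part of this in the DG values was not tested. In this class 19 of 22 beta genes were above in both KI libraries and 0 below (all genes above, 30.3%), 7 of 21 gamma genes were below and 1 above, a share near that of all genes (31.2% below), and 6 of 14 alpha genes were above and 1 below. With library totals 11 gamma genes were below. The KI mean of gamma genes in DG was lower for 14 and higher for 7.

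In CA1 neurons edgeR called 0 of 41 members, where 7.82% of all genes were called, with 13 at an unadjusted p below 0.05 (all genes, 26.8%). DESeq2 also called 0 members, where it called 1236 of 16052 genes. The fits that left out 1 KI library each called 8 members, where 4277 of 16531 (KI replicate 1 left out) and 7352 of 16853 genes (KI replicate 2 left out) were called. All 21 gamma genes had a lower KI mean, 15 of them with both KI libraries below both WT libraries and 0 above (all genes below, 29.2%). Of the beta genes 13 were above and 0 below (all genes above, 29.5%). The smallest adjusted p-values in this class lay between 0.065 and 0.070, for Pcdhb17 (log2 0.74), Pcdhb21 (0.98), Pcdhb22 (0.89) and Pcdhgc5 (−0.87). Pcdhgc4 had 2.46 and 3.94 CPM in WT, against 1.45 and 1.32 CPM in KI (−1.10, adjusted p = 0.11).

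In the remaining neuron classes edgeR called no member. In CA3 neurons 0 of 30 were called (all genes, 2.41%), with 3 at an unadjusted p below 0.05 (all genes, 21.1%). In subicular or cortical excitatory neurons 0 of 37 were called (all genes, 0.150%), with 8 below an unadjusted 0.05 (all genes, 18.3%). In inhibitory neurons 0 of 31 were called (all genes, 1.24%), with 4 below an unadjusted 0.05 (all genes, 19.8%). The shares at an unadjusted p thus lay near that of all genes in subicular or cortical neurons and below it in CA3 and inhibitory neurons. DESeq2 called 0 members in each of these classes. It called 453 of 15515 genes in CA3, 323 of 16043 in subicular or cortical and 302 of 15163 in inhibitory neurons. Without KI replicate 2, edgeR called 4 in CA3, 3 in subicular or cortical and 5 in inhibitory neurons, where 5380 of 16176, 3665 of 16746 and 4593 of 15721 genes were called. Beta genes above in both KI libraries numbered 12 in CA3 (all genes, 26.4%), 13 in subicular or cortical (25.5%) and 13 in inhibitory neurons (26.1%), with 0 below in each. Gamma genes below in both KI libraries numbered 12 in CA3 (all genes, 26.8%), 10 in subicular or cortical (26.1%) and 7 in inhibitory neurons (27.0%), the last share being near that of all genes.

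Glial nuclei gave less depth. In oligodendrocytes 14 members passed the filter and edgeR called 0 (all genes, 0.914%), and in astrocytes 5 passed and 0 were called (all genes, 0.149%). In both, 0 had an unadjusted p below 0.05 (all genes, 14.5% and 11.5%). DESeq2 called 0 members in both, where it called 113 of 12806 and 23 of 10717 genes. No member passed the filter in Cajal-Retzius cells, OPCs, committed OPCs, microglia or fibroblasts. With no filter but at least 1 UMI edgeR called 0 members in each. Calls over all genes then ran from 1 of 14375 in committed OPCs to 167 of 19319 in OPCs.

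The genotype effect differed between DG and CA1 neurons for 1 member. The interaction was tested in 46 members, of which edgeR called Pcdhgc5, where 13.9% of all genes were called. Pcdhgc5 had 4.95 and 4.13 CPM in WT, against 4.499 and 4.42 CPM in KI in DG neurons, which overlapped. In CA1 neurons it had 6.61 and 6.18 CPM in WT, against 2.97 and 3.61 CPM in KI, which did not. Its log2 effect was larger in DG than in CA1 by 0.97 ± 0.28 (adjusted p = 0.0361). Leaving out 1 library moved the count called to 0 without either WT replicate, 2 without KI replicate 1 and 3 without KI replicate 2, while calls over all genes moved to 1138 of 17563 and 896 of 17735 (WT replicate 1, then 2, left out), 2991 of 17504 and 3749 of 17744 (KI replicate 1, then 2).

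The other C-type members had lower KI means over all nuclei without passing the test. Pcdhac2 had 1.48 and 1.71 CPM in WT, against 1.25 and 0.859 CPM in KI (−0.54, adjusted p = 0.30), and in DG neurons 1.67 and 1.64 CPM in WT, against 0.833 and 0.514 CPM in KI (−1.12, adjusted p = 0.13), the last from 10 and 5 UMIs. Pcdhac2 in DG thus lay opposite to the other 6 alpha genes tested there, whose estimates were 0.16 to 0.80. Pcdhac1 had 18 and 22 UMIs in WT and 12 and 6 in KI over all nuclei (−1.13, adjusted p = 0.23). Pcdhgc3 had 1.04 and 0.981 CPM in WT, against 0.727 and 0.804 CPM in KI (−0.35). Pcdhgc4 had 3.71 and 3.94 CPM in WT, against 2.86 and 3.05 CPM in KI (−0.32).

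Since beta genes are single-exon genes, other protein-coding genes with 1 exon were set beside them. Their median log2 fold change in KI was −0.01 over all nuclei (492 genes), 0.04 in DG (321 genes) and −0.08 in CA1 neurons (301 genes), beside medians of 0.47, 0.66 and 0.48 for the beta genes tested. Genes that flank the arrays on the chromosome, such as Diaph1 and Hdac3, were not called. Of 11 listed, 0 of the 10 tested were called over all nuclei, in DG and in CA1 neurons (all genes, 0.889%, 9.49% and 7.82%). In the other neuron classes, oligodendrocytes and astrocytes 0 of 7 to 9 tested were called (all genes, 0.149% to 2.41%). With so few genes tested, 0 calls lie near these shares. The medians of the flanking genes were −0.17 over all nuclei, −0.13 in DG and −0.18 in CA1 neurons. Neither set was matched to the beta genes in level or length. Whether exon number or chromosome position has a part in the beta values was not tested.

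The 23 regulators of promoter choice and chromatin included Ctcf, the cohesin subunits Rad21 and Smc3, the chromatin repressor Smchd1 and the DNA methyltransferases. Of these, 0 were called over all nuclei (all genes, 0.889%), and 1 was called in DG neurons, a share below the 9.49% of all genes there. This was Pds5b, a cohesin-associated factor, which fell in DG with 172 and 178 CPM in WT, against 103 and 127 CPM in KI (−0.48 ± 0.11, adjusted p = 0.0488). Of 20 partners and proteases of the cytoplasmic tails, 0 were called over all nuclei (all genes, 0.889%). In DG and in CA1 neurons 1 of 19 tested was called each, again below the share of all genes (9.49% and 7.82%). Ptk2b, a kinase that binds the tails, fell in DG with 425 and 426 CPM in WT, against 264 and 304 CPM in KI (−0.45 ± 0.09, adjusted p = 0.0319). Marcks, an actin-linked substrate of protein kinase C, fell in CA1 neurons with 18.2 and 15.8 CPM in WT, against 8.60 and 9.86 CPM in KI (−0.80 ± 0.17, adjusted p = 0.0337). The medians of both lists lay between −0.08 and 0.07 over all nuclei, in DG and in CA1 neurons.

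The delta protocadherins, which are encoded outside the arrays and are not chosen by alternative promoters, showed no common direction. Of 10 such genes 0 were called over all nuclei (all genes, 0.889%). Of the 9 tested in DG neurons, 2 rose (Pcdh7 and Pcdh8) and 1 fell (Pcdh19), a share above the 9.49% of all genes. Pcdh7 had 117 and 129 CPM in WT, against 441 and 387 CPM in KI (1.89 ± 0.12, adjusted p = 0.00210). Pcdh8 had 24.2 and 20.1 CPM in WT, against 39.5 and 38.6 CPM in KI (0.95 ± 0.14, adjusted p = 0.0143). Pcdh19, an X-linked epilepsy gene, had 153 and 152 CPM in WT, against 40.2 and 73.9 CPM in KI (−1.30 ± 0.24, adjusted p = 0.0268).

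Nuclei with several UMIs of 1 array show how members are spread over single cells. For each class, pairs of UMIs of the same array were taken within nuclei, and the share that fell on the same member was set beside the share for pairs from different nuclei of the same library and class. In DG granule neurons 16.3% of 747 beta pairs within nuclei fell on the same member against 7.30% between nuclei, and the within share was above in 4 of 4 libraries. For alpha the shares were 21.2% (80 pairs) and 14.7%, and for gamma 11.2% (374 pairs) and 7.52%. CA1 neurons gave 11.4% of 1185 beta pairs against 7.69%, and CA3 neurons 12.5% of 722 against 8.07%, again above in 4 of 4 libraries each. For alpha the within share was above in 4 of 4 libraries in DG and in 3 of 4 in CA1 (21.8% of 147 pairs against 14.5%). It was above in 3 of 4 in CA3 (20% of 85 against 15.7%) and in 2 of 4 in inhibitory neurons (15.2% of 92 against 12.8%). Pooled over libraries, pairs within nuclei thus shared a member more often, as values without a test.

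**Figure D4:**
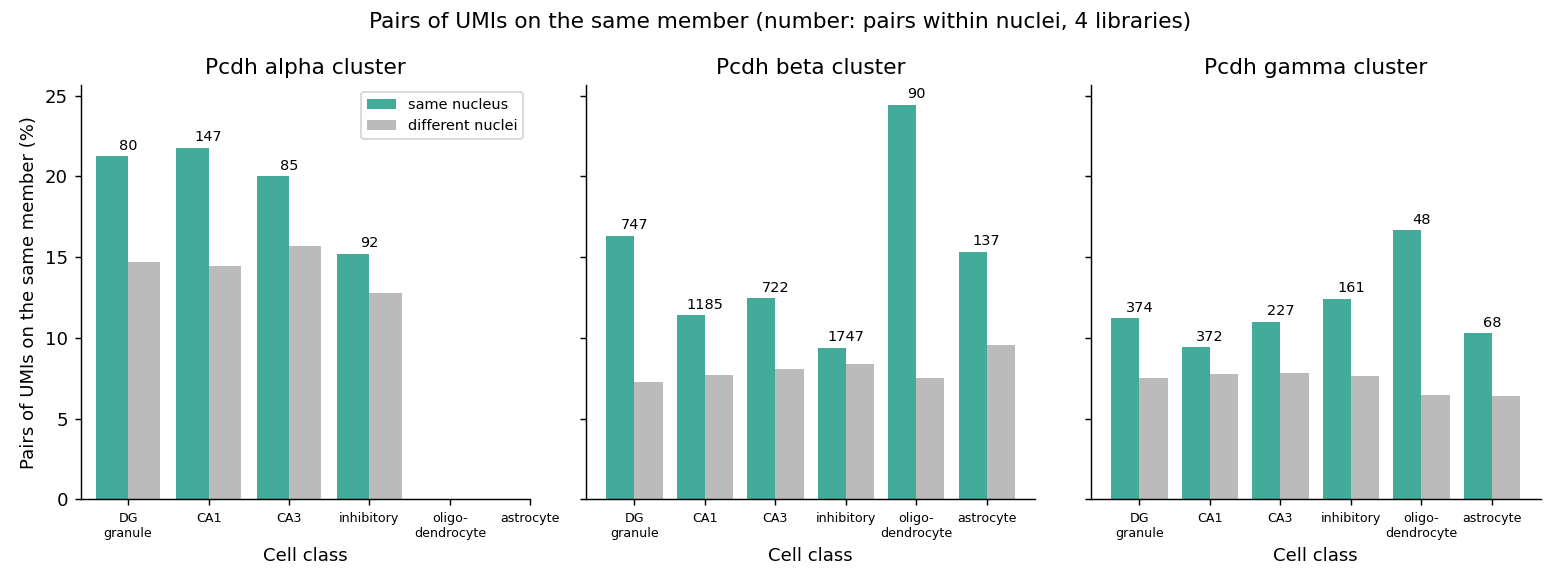
Share of UMI pairs that fall on the same member (vertical axis, percent) for pairs in the same nucleus (green) and in different nuclei of the same class and library (grey), by cell class (horizontal axis) and array (panels), 4 libraries pooled. Numbers above bars are pairs within nuclei. Alpha bars for oligodendrocytes and astrocytes are not drawn because they held 1 and 0 pairs, and the green bar is the higher one in every class drawn.

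Among beta genes the excess was smallest in inhibitory neurons, where 9.39% of 1747 pairs within nuclei shared a member against 8.36% between nuclei. Oligodendrocytes had 24.4% of 90 beta pairs against 7.53%, and astrocytes 15.3% of 137 pairs against 9.56%. For gamma genes the within share was above in 2 of 4 libraries in CA1 neurons (9.41% against 7.76%) and in 2 of 4 in astrocytes, and in 3 of 4 in the other classes. Delta protocadherins, which have no promoter choice, also had a higher share within nuclei (63.3% against 59.9% in DG and 71.1% against 59.7% in inhibitory neurons). An excess was thus not limited to the clustered genes, but the delta shares between nuclei were far higher. What gives the excess was not tested in either group. Pairs within a nucleus are not independent of one another.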

How the data were processed

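Nuclei from frozen hippocampi of 2 WT and 2 KI mice were profiled by a droplet method that reads transcript 3′ ends. The authors deposited raw UMI counts per gene and barcode made with Cell Ranger 7.0.1 per the file headers, on build mm10 per the submitters' processing notes. Whether intronic reads were counted is not given in the sources used here. Libraries held 73009975 to 80913580 UMIs. Nuclei with at least 500 genes and at most 5% mitochondrial UMIs were kept, and doublets (score above 0.25) were removed. Nuclei were clustered with scanpy 1.11.5 (Leiden, resolution 0.5) without the 57 members and named from fixed markers. The limits that kept clusters unnamed (median doublet score 0.1, margin 20%, 80% of the markers of a second class raised) were set after the clusters were seen. UMIs were summed per library and class, and tested with edgeR 4.0.16 (quasi-likelihood, TMM, filterByExpr, Benjamini-Hochberg over all genes tested, threshold 0.05), with DESeq2 1.42.0 as an alternative. Where a CPM is printed it is UMIs in 1000000 UMIs of that class and library. The study tested single nuclei, whereas the mouse is the replicate here. Gene structures came from GENCODE M21. Named members were those called between genotypes, the 3 highest per array, the C-type members, and the 2 with the largest change each way per class contrast. Other members named in passing were chosen after their values were seen. The members, gene lists and tests were chosen with earlier results of these data known. Intervals and floors (3 UMIs) cover counting error only. Scripts were tested on simulated data. No sequence of this region is printed.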

Additional observations from a re-analysis of the deposited data

Results flagged for a closer look

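The effect of the KI genotype on Pcdhgc5 differed between DG granule and CA1 pyramidal neurons, as tested by an interaction term with the mouse as a block. The log2 effect in DG minus that in CA1 was 0.97 (SE 0.28, adjusted p = 0.0361), with an effect of 0.11 in DG and −0.87 in CA1. In DG the KI libraries lay within the WT range, and in CA1 both lay below both WT libraries. Without WT replicate 1 or WT replicate 2 no member passed this test.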

How the results depend on the processing

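Of 382 recomputed counts, sums and shares that answer a comparison, 327 stayed within the limits set for them and 55 moved. The cause of these moves was not tested except where fewer classes or genes entered by construction. Staying within the limits did not require the same direction. The gamma log2 ratio in oligodendrocytes, where the genotypes overlapped, was −0.14 and ranged from −0.42 to 0.094 with 1 library left out. The number of members called between genotypes changed to 3 over all nuclei with DESeq2 (1829 of 21718 genes called in that fit) and to 1 in CA1 at resolution 1.0 (998 of 14627). In DG it changed to 0 with library totals (1821 of 16383 genes), 1 with DESeq2 (1717 of 16383) and 4 with no filter (3386 of 25456). In the class contrasts, neurons against non-neuronal classes gave 9 with library totals (8195 of 15131 genes), 5 with no filter (8149 of 27980), 5 with nuclei of at least 1000 genes (7743 of 15049), 1 at resolution 1.0 (7231 of 14173) and 18 with classes of at least 100 nuclei (12124 of 18217). DG against CA1 gave 4 with WT libraries only (6810 of 16020). CA3 against CA1 gave 7 with no filter (4428 of 27980), 5 without doublet removal (4214 of 16101) and 9 with classes of at least 100 nuclei (4437 of 18217). OPCs against oligodendrocytes gave 5 with WT libraries only (4453 of 16020), 5 with at least 1000 genes (4766 of 15049) and 3 at resolution 1.0 (5078 of 14173). The class contrasts with no filter and with classes of at least 100 nuclei were added after seeing the data. With effective library sizes (TMM) the log2 ratios of the sums became 0.51 for beta over all nuclei, 0.27, 0.68 and −0.18 for alpha, beta and gamma in DG, −0.32, 0.53 and −0.74 for the same in CA1, 0.40 for beta in CA3 and 0.64 for beta in subicular or cortical neurons. Library totals in place of TMM moved the median of all genes in DG from 0.00122 to −0.13.

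Leaving out each library in turn gave 0 to 11 members called over all nuclei, 0 to 12 in DG, 0 to 8 in CA1, 0 to 4 in CA3, 0 to 3 in subicular or cortical and 0 to 5 in inhibitory neurons, and 0 to 3 for the interaction. The class contrasts ranged from 2 to 4 for neurons against non-neuronal classes, 1 to 3 for DG against CA1 and 0 to 3 for CA3 against CA1. They ranged from 8 to 10 for inhibitory neurons, 2 to 3 for astrocytes and 2 to 6 for OPCs. Over all genes, calls in the first 3 contrasts ran from 6796 of 15309 to 7131 of 15875, 4668 of 15251 to 5414 of 15309 and 2610 of 15251 to 3766 of 15309. For inhibitory neurons they ran from 6279 of 15251 to 7112 of 15309, and for astrocytes from 4600 of 15218 to 5135 of 15875. Those for OPCs are given above. A group left with 1 library was assumed to vary like the other. The log2 ratios of the sums ranged from −0.53 to −0.35 for gamma and −0.36 to −0.14 for alpha over all nuclei, −0.91 to −0.76 for gamma and −0.48 to −0.35 for alpha in CA1, −0.44 to −0.20 for gamma and 0.0265 to 0.25 for alpha in DG, −0.64 to −0.26 for gamma and −0.44 to −0.21 for alpha in subicular or cortical neurons, 0.26 to 0.50 for beta in inhibitory neurons and 0.18 to 0.40 for beta in oligodendrocytes. Among single members, Pcdha4 over all nuclei ranged from −0.0154 without WT replicate 1 to 0.167 without WT replicate 2, and was −0.00549 without KI replicate 2. Pcdhac1 ranged from −1.81 to −0.66 and Pcdhac2 from −0.87 to −0.29 over all nuclei, both lowest without KI replicate 1 and nearest 0 without KI replicate 2.

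The replicate numbers mark no shared litter or day in the labels, and samples of the same number did not deviate together (correlation 0.06 over all nuclei, −0.04 in DG and −0.04 in CA1). With the replicate number as a block (replicate block), 3 members were called in CA1, 3 in DG and 0 over all nuclei, where 2665 of 16052, 2954 of 16383 and 1955 of 21718 genes were called. Depth limited the glial classes, where few members reached the filter on low counts.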
